A study of Drosophila melanogaster with 4 samples.

Results

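Smc3 clusters were described on the inner, euchromatic stretch of chromosome arm 2L of Drosophila melanogaster. A cluster is a region the authors called as enriched for Smc3. Members were the clusters on 2L whose midpoint lay more than 1 Mb from the telomere-side end of the arm and more than 2 Mb from its centromere-side end, on FlyBase release 5. This rule used position alone. It took 891 of the 7858 clusters of replicate 1 (11.3%), 922 of the 6505 of replicate 2 (14.2%) and 2479 of the 15781 enriched regions of the authors' replicate-set list (15.7%).

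Smc3 is one of the long coiled-coil subunits of cohesin. With Smc1 and a kleisin subunit it forms a ring that holds sister chromatids together after replication, and in interphase the complex takes part in the looping of chromatin. In flies cohesin is known to be loaded by Nipped-B and to be found largely at active genes and regulatory elements in euchromatin. Euchromatin is the gene-rich, mostly single-copy part of an arm.

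Chromatin came from larvae of instar 3 of the wild-type strain Oregon-R, with no transgene and no treatment. It was precipitated with an affinity-purified rabbit polyclonal antibody raised against residues 321 to 420 of Smc3. The 4 samples were 2 Smc3 ChIP samples and 2 Input samples of the same strain and stage. Titles and source names separate ChIP from Input. The free-text descriptions do not, since ChIP and Input of the same replicate number carry the same text, which for replicate 2 names input DNA alone. The values below come from the lists of both ChIP samples and from the replicate-set list. No value of an Input sample was used here. Per the labels, tissues of larvae were homogenized and no single tissue is named, so the share of cells that hold Smc3 at a place and the amount held per cell cannot be told apart. Nothing in the labels says that the replicates came from separate collections, and their spread may reflect technical error alone. The sequencing depth is unknown. Both ChIP samples form 1 group, so no test between groups exists, and the comparisons below are descriptions with the spread over the replicates.

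The 2 replicates placed nearly the same number of clusters on the stretch, and these were short. Replicate 1 held 4.45 clusters per 100 kb and replicate 2 held 4.61, a mean of 4.53 ± 0.110 (SD, n = 2). They covered 9.23% and 8.29% of the 20.0 Mb, a mean of 8.76% ± 0.662 (SD, n = 2), or 1.85 Mb and 1.66 Mb. The median width was 1999 bp in replicate 1 and 1596 bp in replicate 2. In replicate 1 the middle 50% of widths lay between 1662 and 2108 bp, and in replicate 2 between 1408 and 1942 bp. The shortest clusters were 1302 bp and 1301 bp, so clusters shorter than this were not among the members of either replicate. Only 11 clusters of replicate 1 and 9 of replicate 2 reached 5 kb. The difference in cover thus followed width, since replicate 2 had more clusters but fewer covered bases.

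The authors' score of a cluster was a log2 value, and neither side of its ratio is named in the deposited lists. Its median was 0.67 in replicate 1 (middle 50% from 0.57 to 0.82) and 0.70 in replicate 2 (0.61 to 0.80). The highest score on the stretch was 1.85 in replicate 1 and 2.13 in replicate 2. The constant that scales each list is not known, so scores are compared by their standing within a list. Wider clusters scored higher within replicate 1, with a Spearman correlation of 0.568 across its 891 clusters. The same correlation was 0.277 across the 922 clusters of replicate 2. Clusters of 1 list share their library, so these correlations are descriptions.

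Gaps between clusters varied widely in length, with many short ones and a small number of long ones that took up much of the stretch. The median gap between neighbouring clusters was 12284 bp in replicate 1 and 11055 bp in replicate 2. The middle 50% of gaps ran from 3995 to 26444 bp in replicate 1 and from 3456 to 27667 bp in replicate 2. Gaps under 1 kb numbered 79 of 892 in replicate 1 and 71 of 923 in replicate 2, so a small share of clusters stood almost side by side. At the other end, 99 gaps of replicate 1 and 100 of replicate 2 were 50 kb or longer. These were 11.1% and 10.8% of the gaps, and they held 38.0% and 38.1% of the bases of the stretch. By this measure the replicates differed by 1 gap in number. On the matching inner stretches such gaps held 37.0% and 48.8% of bases on 3L in replicates 1 and 2. They held 35.5% and 47.6% on 3R, and 17.7% and 46.3% on X. The gaps expected from placement alone at this density were not computed, so the long gaps are not read as a trait of the clusters.

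**Figure D1:**
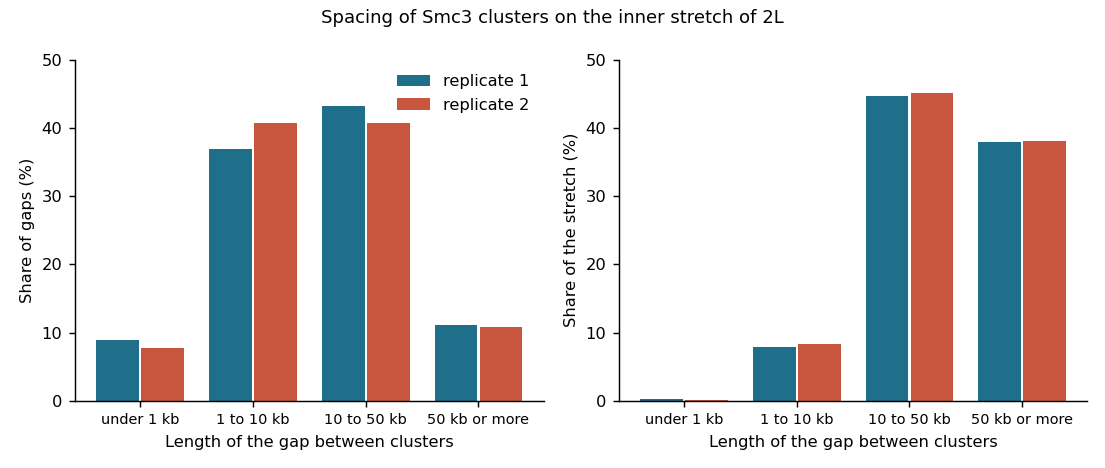
Gaps between Smc3 clusters on the inner stretch of 2L, by length class, as a percent of gaps (left) and as a percent of the bases of the stretch (right), as blue bars for replicate 1 and red bars for replicate 2. Gaps of 50 kb or more were 11.1% and 10.8% of gaps and held 38.0% and 38.1% of bases.

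The long gaps of 1 replicate were mostly not free of clusters in the other. The longest of replicate 1 ran from 15334966 to 15497946 (163 kb) and held 2 clusters of replicate 2. Next came the gaps from 20457015 to 20605733 (149 kb, 4 clusters of replicate 2) and from 17130741 to 17272014 (141 kb, 2 clusters). The gaps from 10564165 to 10690642 (126 kb) and from 10935173 to 11056382 (121 kb) held 3 clusters of replicate 2 each. Of the 99 stretches of at least 50 kb without a cluster in replicate 1, 11 had no base inside a cluster of replicate 2.

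Replicate 2 was longest without a cluster from 11277393 to 11451518 (174 kb), where replicate 1 held 2 clusters. Its next gaps ran from 14290683 to 14434791 (144 kb, 5 clusters of replicate 1), from 1858265 to 1998700 (140 kb, 3 clusters) and from 8777780 to 8911045 (133 kb, 1 cluster). The fifth ran from 3471265 to 3603622 (132 kb, 2 clusters). Of its 100 stretches of at least 50 kb, 15 had no base in a cluster of replicate 1.

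Even so, the other replicate was sparser in these stretches than over the whole. Replicate 2 covered 5.11% of the bases in the empty stretches of replicate 1, against 8.29% of the whole stretch. Replicate 1 covered 5.95% of the empty stretches of replicate 2, against 9.23%. Taken over both lists together, 43 stretches of at least 50 kb held no cluster, 2.94 Mb or 14.7% of the whole. The longest ran from 8777780 to 8897858 (120 kb), from 1885516 to 1988718 (103 kb) and from 7300281 to 7400575 (100.3 kb). The next ran from 20506531 to 20602302 (95.8 kb) and from 15350228 to 15442225 (92.0 kb). None of these 5 was free of regions of the replicate-set list, which placed 7, 4, 2, 3 and 1 in them, in that order, with a highest score of 0.64.

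Fixed windows of 100 kb showed where clusters piled up. Over the 200 windows, median cover was 8.37% in replicate 1 (middle 50% from 5.10% to 12.2%) and 6.71% in replicate 2 (4.40% to 11.3%). A window was called dense where its cover was at least 2 times the median of its list, that is from 16.7% in replicate 1 and from 13.4% in replicate 2. By this rule 21 windows were dense in replicate 1 (10.5% of the 200), 33 in replicate 2 (16.5%) and 8 in both. These 8 were 38.1% of the dense windows of replicate 1 and 24.2% of those of replicate 2. In the windows dense in replicate 1 the median cover of replicate 2 was 11.2%, and 6.47% elsewhere. In those dense in replicate 2 the median cover of replicate 1 was 12.2%, and 7.92% elsewhere. Dense windows of 1 replicate were thus also fuller in the other list, but most did not reach its limit.

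**Figure D2:**
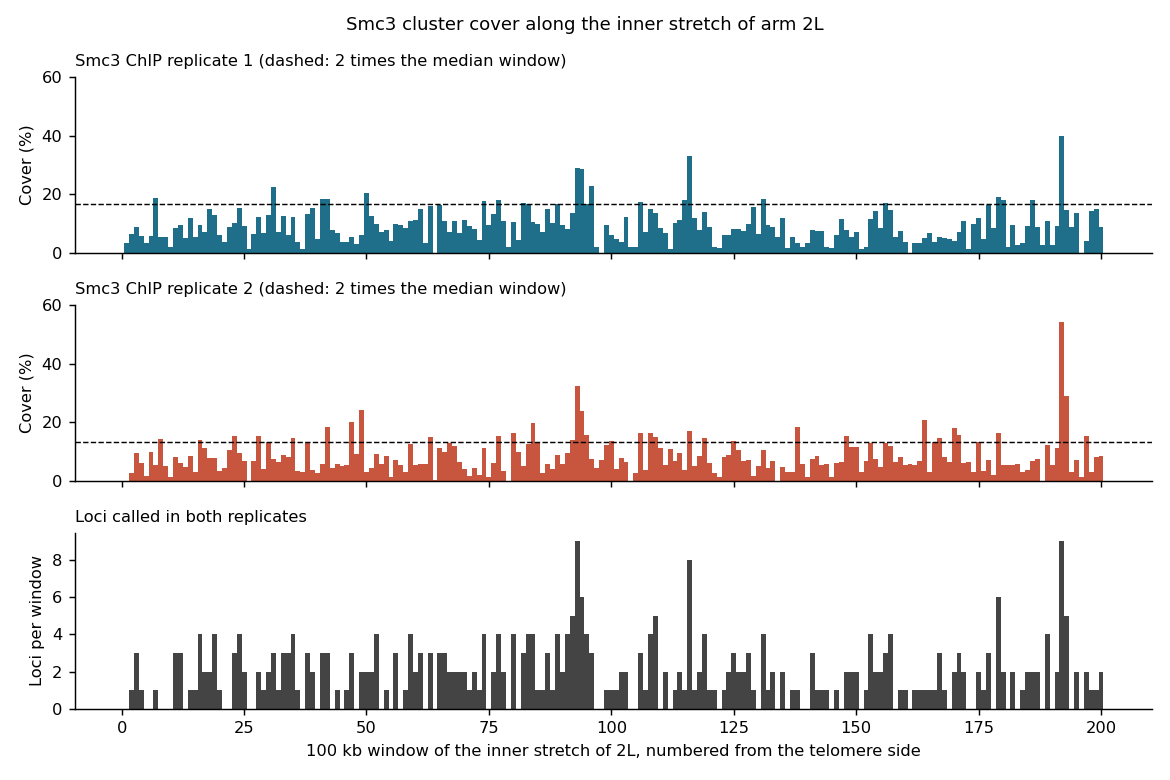
Percent of each 100 kb window inside Smc3 clusters, for replicate 1 (top) and replicate 2 (middle), and the number of loci called in both replicates (bottom), over 200 windows numbered from the telomere side. The highest bar of either replicate is the same window, at 40.0% in replicate 1 and 54.2% in replicate 2, and it holds 9 of these loci.

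The fullest window lay near the centromere side, from 20100001 to 20200000. Its cover was 40.0% in replicate 1 and 54.2% in replicate 2, a mean of 47.1% ± 10.1 (SD, n = 2), from 15 and 16 clusters. All 15 clusters of replicate 1 there touched a cluster of replicate 2, while in the other direction 11 of 16 did. The densest part began at 20101762 in replicate 2, with clusters of 6.25 kb, 3.31 kb and 10.6 kb that followed each other up to 20122385. Replicate 1 held 5 clusters there, the first from 20101930 to 20108131 (6.20 kb, score 0.82) and the last from 20118794 to 20122072 (3.28 kb, score 1.03). The replicate-set list joined this part into 1 region from 20098664 to 20125606, at 26.9 kb its widest on the stretch.

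The next window on the centromere side, from 20200001 to 20300000, was filled unequally by the replicates. Its cover was 14.8% in replicate 1, below the limit of that list, and 29.1% in replicate 2, from 7 and 15 clusters. Replicate 2 placed 5 clusters between 20200432 and 20219686, among them 1 of 3.78 kb with a score of 1.05 and 1 of 3.72 kb with a score of 1.13. Replicate 1 had none there.

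A second dense neighbourhood lay in mid-arm and filled 2 adjoining windows in both replicates. From 10200001 to 10300000 cover was 28.9% and 32.4% in replicates 1 and 2, a mean of 30.7% ± 2.46 (SD, n = 2), from 10 and 11 clusters. All 10 clusters of replicate 1 in that window and 9 of the 11 of replicate 2 touched the other replicate. From 10300001 to 10400000 cover was 28.9% and 23.8%, a mean of 26.3% ± 3.55 (SD, n = 2), from 12 and 13 clusters. In this window 6 of 12 and 8 of 13 clusters were shared.

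The remaining window of the 5 fullest ran from 12500001 to 12600000, with 33.1% and 16.9% (mean 24.99% ± 11.4, SD, n = 2). Its 12 clusters of replicate 1 had a median score of 0.98, above the 0.82 that marks the upper end of the middle 50% of that list. Its 9 clusters of replicate 2 had a median score of 0.61, at the lower end of the middle 50% of their list. Of these clusters 9 of 12 and 8 of 9 were shared, so the places recurred while their standing within the list differed.

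The other windows dense in both replicates ran from 5100001 to 5200000 (18.5% and 18.3%), from 8600001 to 8700000 (18.1% and 15.5%), from 11500001 to 11600000 (17.5% and 16.3%) and from 18800001 to 18900000 (19.1% and 16.2%). In these 4 the replicates differed by less than 3 percentage points of cover. The 5 fullest windows by mean cover were 2.50% of the windows and held 7.89% of the bases in clusters of replicate 1, and 9.43% for replicate 2. They held 37 of the loci called in both replicates, or 10.5%. Since the windows were chosen by the cover of these same lists, these shares are a description of the choice.

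No window was empty in both replicates. Replicate 1 left 4 windows without a base in a cluster and replicate 2 left 5, and the other list covered from 0.280% to 7.14% and from 1.41% to 5.64% of them. The emptiest by mean cover, from 7300001 to 7400000, had a cover of 0.280% in replicate 2 and of 0 in replicate 1. It was the 1 window without a cluster midpoint in either list. The replicate-set list covered every window, from 1.68% to 80.7%.

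Across the 200 windows, cover in the replicates had a Pearson correlation of 0.525 and a Spearman correlation of 0.411. Without the 2 fullest windows Pearson's value was 0.375, and without the 4 fullest it was 0.316. The value over all windows therefore rested in part on a handful of dense ones. Windows of 1 list share a library and a threshold, so these values are descriptions. Counted as midpoints per window, Spearman's correlation was 0.344. Neighbouring windows were weakly alike in replicate 1 (Spearman 0.189 over 199 pairs) and not in replicate 2 (-0.018). Of the dense windows, 10 of 21 in replicate 1 and 10 of 33 in replicate 2 adjoined another dense one. They formed 5 pairs in replicate 1, and 3 pairs and a run of 4 in replicate 2. With 10.5% and 16.5% of all windows dense, some would adjoin another by placement alone. That number was not computed, so these counts are not read as grouping of dense windows.

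**Figure D3:**
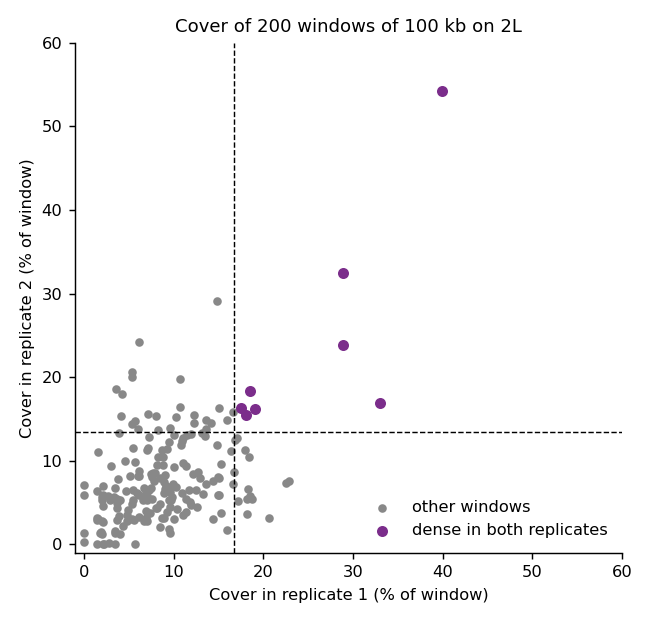
Cover of each of the 200 windows of 100 kb in replicate 1 (horizontal) against replicate 2 (vertical), in percent of the window. Dashed lines mark 16.7% and 13.4%, from which a window was called dense, and the 8 windows past both are purple. Most windows form a broad cloud below both lines.

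In bins of 1 Mb, mean cover ran from 6.09% ± 0.640 (SD, n = 2) in the first bin at the telomere side to 13.9% ± 0.285 between 10000001 and 11000000. The bin from 20000001 to 21000000 was close to the latter, at 13.5% ± 0.854. Replicate 1 was higher in 15 of the 20 bins. The widest disagreement lay between 17000001 and 18000000, where replicate 1 covered 4.28% with 22 clusters and replicate 2 covered 10.2% with 60. Replicate 2 was higher in 9 of the 10 windows of that bin. It was the lowest bin of replicate 1 and the third highest of replicate 2.

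The next comparison asked which places were called in both replicates. In replicate 1, 366 of the 891 clusters or 41.1% (95% exact binomial interval 37.8 to 44.4) shared at least 1 bp with a cluster of replicate 2. Over all sequences of the genome 51.8% did. In replicate 2, 364 of 922 or 39.5% (36.3 to 42.7) shared a base with replicate 1, against 54.6% over all sequences. The intervals cover counting error only. Both shares lay below those over all sequences. The other list covered 8.29% of the stretch for replicate 1 and 9.23% for replicate 2. That is a share of bases and no yardstick for a share of clusters, since a cluster is touched through any of its bases. The share touched by placement alone was not computed. By bases, 0.607 Mb lay inside clusters of both replicates, which was 32.9% of what replicate 1 covered and 36.6% of what replicate 2 covered.

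Clusters joined by shared bases made 1436 loci, of which 353 were called in both replicates, 525 in replicate 1 alone and 558 in replicate 2 alone. The 353 were 24.6% of all loci on the stretch. This share was not computed over all sequences or on other arms, so it is not read as a trait of 2L. At 337 of them a single cluster of each replicate met, and only 16 held more than 1 cluster of a replicate. Each of the 353 also touched a region of the replicate-set list, which belongs to the same series and is no independent check. Loci called in both replicates lay a median of 26.2 kb apart. Of these distances 92 were under 10 kb and 68 were over 100 kb. The longest ran from 1653244 to 2003265, 350 kb with no such locus, followed by those from 14707518 to 15038162 (331 kb) and from 3426048 to 3755160 (329 kb).

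Overlap, by which these loci were chosen, limits how far their clusters can lie apart. The midpoints lay a median of 185 bp apart, and in 177 of 337 loci (52.5%) at most 200 bp apart. In 37 loci (11.0%) they were over 1000 bp apart. The median signed distance, replicate 2 minus replicate 1, was 13 bp, so neither list was displaced to one side. The cluster of replicate 1 was the wider in 251 loci and that of replicate 2 in 86, with medians of 2037 and 1734 bp. The stretch in common was a median of 77.7% of the cluster of replicate 1 and 97.9% of that of replicate 2. The cluster of replicate 2 lay wholly inside that of replicate 1 at 139 loci (41.2%), and the reverse held at 33 (9.79%).

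The heights at these loci corresponded weakly. Across the 337 loci the scores had a Spearman correlation of 0.231 and a Pearson correlation of 0.303. The widths had 0.288 and 0.605. Each is a description across loci of 1 pair of libraries.

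**Figure D4:**
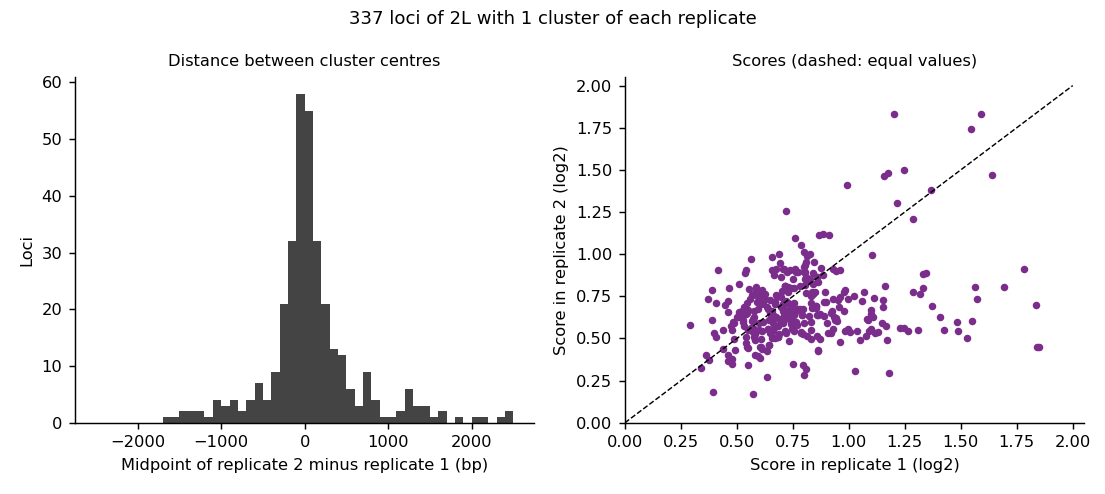
The 337 loci with 1 cluster of each replicate. Left, the midpoint of the cluster of replicate 2 minus that of replicate 1 in bp, which peaks at 0 with a median distance of 185 bp. Right, the log2 score in each replicate, with a dashed line at equal values, where many of the loci scoring from 1.2 in replicate 1 lie between 0.45 and 0.91 in replicate 2.

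Loci were then ranked by the lower of their 2 within-list score percentiles, which asks for a high standing in both replicates. A locus with more than 1 cluster of a replicate took the highest of their scores. The first was the locus from 10234274 to 10240680 in the mid-arm neighbourhood. Its cluster scored 1.64 in replicate 1 (5.63 kb) and 1.47 in replicate 2 (6.41 kb), at percentiles 99.3 and 99.2 of the scores on the stretch. The locus directly before it, from 10224887 to 10233499, scored 1.37 and 1.38 and was 8.61 and 7.10 kb wide. Only 0.774 kb separated these loci. The second in rank, from 10403423 to 10409247, lay a little further on, with scores of 1.59 and 1.83 and widths of 5.74 and 5.65 kb. Of the 10 leading loci, 3 therefore lay in or just beside this neighbourhood.

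Another 2 of the 10 lay in the neighbourhood near the centromere side. The locus from 20179614 to 20184461 scored 1.30 and 1.26, and the locus from 20220778 to 20222857 scored 1.29 and 1.21. At the former, replicate 1 had 2 clusters, and the 1.30 belonged to that from 20182454 to 20184461. Its other cluster, from 20179941 to 20181986, scored 0.85 and lay wholly inside the cluster of replicate 2. The other 5 stood apart from both neighbourhoods. From 6992766 to 6996409 the clusters scored 1.55 and 1.74 and were 3.62 and 3.64 kb wide, and 3612 bp were common to both. From 16514241 to 16517831 they scored 1.25 and 1.5, and from 14705312 to 14707518 they scored 1.21 and 1.30. The locus from 9975715 to 9979679 scored 1.2 and 1.83. That from 17911925 to 17917144 scored 1.19 and 1.13, with 1 cluster of replicate 1 and 2 of replicate 2. In the replicate-set list the 10 loci scored between 0.85 and 1.65.

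The longest stretch inside 1 cluster of each replicate ran from 11541002 to 11549213, 8.21 kb long, with scores of 1.16 and 1.46. It was the whole cluster of replicate 2, and the cluster of replicate 1 ran from 11540997 to 11549363. It was followed by the stretch of 7.10 kb from 10226351 to 10233451 and that of 6.08 kb from 20101930 to 20108014. The last of these scored 0.82 and 0.84, so a long locus did not need a leading score. A further pair of stretches, of 5.63 kb and 5.57 kb, belonged to leading loci named above, from 10234683 to 10240317 and from 10403508 to 10409075. Just 17 of the 353 loci had 3 kb or more inside 1 cluster of each replicate, and 22 had less than 500 bp.

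The tightest runs of 4 loci called in both replicates fell in some of the fullest windows named above. The tightest spanned 15.7 kb from 12519355 to 12535057. Its 4 clusters of replicate 1 scored from 0.94 to 1.48, above the middle 50% of that list. Its 4 clusters of replicate 2 scored from 0.49 to 0.61, none above the lower end of the middle 50% of theirs. Runs of 16.5 kb from 20220778 to 20237228 and of 18.7 kb from 20179614 to 20198292 followed. In the latter, scores ran from 0.83 to 1.30 in replicate 1 and from 1.00 to 1.48 in replicate 2, and 65.7% and 65.8% of the bases lay in clusters.

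Sharing was more frequent in the 8 windows dense in both replicates. There 58 of 76 clusters of replicate 1 (76.3%) and 52 of 74 of replicate 2 (70.3%) touched the other replicate, against 37.8% and 36.8% elsewhere. Mean cover of the other list was 24.2% and 25.5% in these windows and 7.63% and 8.55% elsewhere, so more of the sequence there could be touched, and the part this played was not tested. Of the clusters that reached 5 kb, 6 of 11 in replicate 1 and 8 of 9 in replicate 2 lay in these windows, and since a wide cluster adds to the cover by which a window was chosen, this count is a description of the choice.

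Width went with sharing alike in both replicates, and score did not. Each list was divided into 4 classes of nearly equal number. Of the narrowest class 23.3% of replicate 1 (interval 17.9 to 29.4) and 24.2% of replicate 2 (18.9 to 30.3) were shared, and of the widest class 59.2% (52.4 to 65.7) and 56.7% (50.1 to 63.2). A wider cluster has more bases to be touched. By score, the share in replicate 1 rose from 26.5% in the lowest class (20.8 to 32.8) to 61.4% in the highest (54.7 to 67.9). In replicate 2 it was 56.3% in the lowest class (49.6 to 62.8), 35.7% and 29.6% in the middle ones and 36.4% in the highest (30.2 to 42.9). The median score of shared clusters was 0.75 in replicate 1, above the 0.64 of the rest, while in replicate 2 it was 0.66, below the 0.71 of the rest. Low-scoring clusters of replicate 2 were thus the ones most often found in replicate 1. On the matching stretches of 3L, 3R and X the lowest class of replicate 2 was also the most shared, at 59.1%, 70.1% and 82.7%, and the lowest class of replicate 1 the least shared, at 21.3%, 21.02% and 17.5%.

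**Figure D5:**
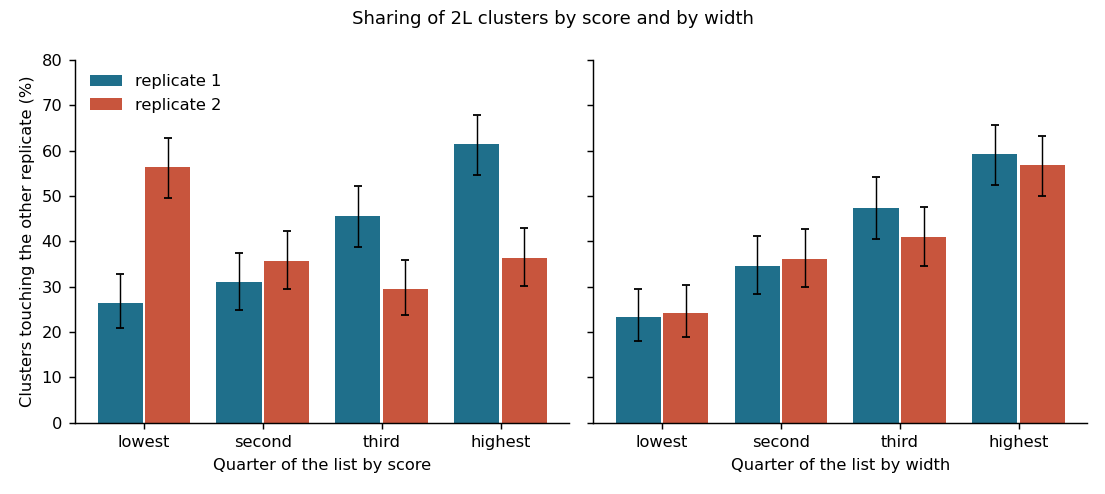
Percent of clusters on the inner stretch of 2L that touched a cluster of the other replicate, in 4 classes of score (left) and of width (right) within each list, with exact binomial intervals at 95% that cover counting error only. By width both replicates climb, from 23.3% and 24.2% to 59.2% and 56.7%. By score replicate 1 climbs from 26.5% to 61.4% and replicate 2 is highest in its lowest class, at 56.3%.

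Clusters of 1 replicate alone were seldom within 1 kb of the other list. The 525 of replicate 1 were a median of 9189 bp from the nearest cluster of replicate 2, with 36 of them (6.86%) within 1 kb and 248 (47.2%) at 10 kb or more. The 558 of replicate 2 were a median of 8134 bp away, with 37 (6.63%) within 1 kb and 234 (41.9%) at 10 kb or more. The distances expected from the density of clusters alone, or found over all sequences, were not computed, so these values do not set the unshared clusters apart. Most touched a region of the replicate-set list, 494 (94.1%) and 491 (88.0%). That list belongs to the same series and covered 22.3% of the stretch, so touching it is no independent evidence for a cluster.

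Some of these scored high. In replicate 1 the highest were from 12892092 to 12894369 (score 1.78), from 11239286 to 11241347 (1.44) and from 6777590 to 6778991 (1.32). In replicate 2 the highest on the whole stretch was one of them, from 20192114 to 20193462, at 2.13. It was 1.35 kb wide, lay inside the fullest window and stood 0.744 kb from the nearest cluster of replicate 1. The next were from 16137569 to 16138913 (1.49) and from 14737219 to 14738630 (1.45). All 6 touched a region of the replicate-set list, with scores there from 0.80 to 1.06.

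The replicate-set list was much denser on the stretch, with 12.4 regions per 100 kb and 22.3% of bases covered. Of its 2479 regions 349 met clusters of each replicate, or 14.1% (exact interval at 95% from 12.7 to 15.5), against 19.5% over all sequences. A further 503 were found in replicate 1 alone and 487 in replicate 2 alone. In neither were 1140 or 46.0% (44.0 to 48.0), against 41.5% over all sequences. Those found in both were wide, with a median of 2457 bp against 1227 bp for those found in neither, and made up 23.7% of its bases. Their median score was 0.60, and that of the regions found in neither was 0.48. The 1227 bp lie below the shortest cluster of either replicate, so no region of that width was among the members of the single lists.

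Among the 50 highest scores of the replicate-set list on the stretch, 26 belonged to regions found in both replicates, 5 to regions found in one and 19 to regions found in neither. The highest found in neither ran from 16142756 to 16143756, with a score of 3.22. It was 1001 bp wide, the smallest width of that list on the stretch. The next, also 1001 bp wide, were from 20154470 to 20155470 and from 20281850 to 20282850, both with a score of 2.73. The latter pair lay in the fullest windows near the centromere side, the second of them in the window below the limit of replicate 1.

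Set beside the matching inner stretches of 3L, 3R and X, 2L had replicates closer in cover and in clusters per 100 kb, and the fullest single window. Those stretches left out 1 Mb at the telomere side and 2 Mb at the centromere side in the same way. On 2L replicate 2 had more clusters than replicate 1, while it had fewer on 3L (744 against 938), 3R (895 against 1177) and X (738 against 1326). Mean cover was 7.48% ± 1.97 on 3L, 7.96% ± 2.27 on 3R and 10.8% ± 5.57 on X (SD, n = 2 each), beside 8.76% ± 0.662 on 2L. The means differed by less than the spread between replicates on those 3 arms. In median width the replicates were not closer on 2L, where the mean was 1797 bp ± 285, than on 3L (1800 bp ± 256), 3R (1818 bp ± 241) and X (1854 bp ± 224; SD, n = 2 each). In the number of dense windows they were further apart on 2L (27 ± 8.49) than on 3L (17.5 ± 3.54) and 3R (25.5 ± 2.12), and closer than on X (19.5 ± 14.8). The 4 stretches came from the same 2 libraries, so the differences between them were not tested over samples.

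The fullest window by mean cover held 47.1% on 2L, and 18.7% on 3L, 20.96% on 3R and 28.2% on X. Windows dense in both replicates were 8 of 200 on 2L, 2 of 215 on 3L, 4 of 249 on 3R and 5 of 194 on X. As a share of the dense windows of replicate 1 these were 38.1%, 13.3%, 16.7% and 55.6%, and of those of replicate 2 24.2%, 10.0%, 14.8% and 16.7%. Spearman's correlation of window cover between the replicates was 0.411 on 2L, 0.197 on 3L, 0.247 on 3R and 0.493 on X. Shared clusters of replicate 1 were 41.1% on 2L and 34.1%, 34.6% and 35.3% on 3L, 3R and X, where the list of replicate 2 covered less, 6.08%, 6.36% and 6.87%. In the other direction they were 39.5% on 2L and 43.4%, 46.3% and 65.2%, where the list of replicate 1 covered 8.87%, 9.57% and 14.7%.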

How the data were processed

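Smc3 ChIP-seq lists of larvae of instar 3 were used. The submitters' processing notes name Bowtie 0.12.7, a read aligner, and the deposited lists place regions on FlyBase release 5, per the file headers. How regions were called, with which thresholds, and how the replicate set was made is not given in the sources used here. The score deposited by the authors was read as log2: powers of 2 of the score, divided by the list's most repeated value, were ratios of whole numbers (denominator up to 3000, tolerance 1e-11) for 98.2% to 99.9% of regions, against at most 1.89% on a natural log, log10 or linear reading. The 2 entries of the replicate-set list marked as depleted, none on 2L, were left out.

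Windows of 100 kb were tiled from the start of the stretch, and the last 11544 bp were left out of window counts. Clusters were shared from 1 bp of overlap. Intervals are exact Clopper-Pearson at 95%. No test was run. Interval routines were tested on simulated data. Regions were named by rank rules (fullest windows, longest gaps, loci high in both lists, highest unshared scores, tightest runs). Members, rules and lists were chosen with earlier results of these data known. No genome or annotation of release 5 was used here, so no sequence or gene is given. Alternatives covered overlap, thresholds, joining, membership, window size and each replicate left out. Values were computed in Python 3.11.15 with pandas 2.3.3, scipy 1.17.1 and numpy 2.4.6, and drawn with matplotlib 3.10.9.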

Additional observations from a re-analysis of the deposited data

How the results depend on the processing

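Of 59 recomputed values 18 moved. The other 41 stayed within 1 SD of the replicates, within the 95% interval of a share, within 1.5 times a count or within 0.1 of a correlation. Some of the 41 could not have moved. With n = 2, either replicate alone always lies within 1 SD of the mean, and the minimum width of 1000 bp left every list unchanged. The count of unmoved values is therefore no measure of robustness. With only the clusters at or above the median score of their list, cover was 4.90%, density 2.27 clusters per 100 kb, the shares found in the other replicate 26.9% and 24.8%, the loci called in both 112, the replicate-set regions found in both 111, the windows dense in both 18 and the windows empty in both 8. Keeping fewer clusters lowers cover and density by construction. It also leaves fewer clusters to touch, can only add empty windows, and resets the median that defines a dense window. These changes are thus not read as an effect of score. Requiring the overlap to reach 50% of the length of both clusters, the shares were 32.9% and 31.8%, the loci called in both 293 and the replicate-set regions found in both 260. Joining clusters less than 500 bp apart gave 4.33 clusters per 100 kb. The windows dense in both numbered 29 of 400 windows of 50 kb, 2 of 100 windows of 200 kb, 23 from 1.5 times the median and 3 from 3 times the median. Windows of 50 kb empty in both numbered 15. Leaving out either replicate gave a cover of 8.29% to 9.23%, a density of 4.45 to 4.61 clusters per 100 kb and a median width of 1596 to 1999 bp. A minimum width of 1000 bp removed no cluster. The correlation of window cover, for which alternatives were added after the data were examined, was 0.448 in windows of 50 kb and 0.588 in windows of 200 kb. Depth is unknown, so a place without a cluster is not shown to lack Smc3. No paired analysis was possible because no result comes from a test between groups: each value describes the ChIP lists alone.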

Other observations

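The scores at loci with 1 cluster of each replicate did not spread evenly, a pattern noticed after the values were seen. Of the 337 loci, 31 scored at least 1.2 in replicate 1. Of these 8 also scored at least 1.2 in replicate 2, and the other 23 scored under 1.00 there. In the other direction, 12 loci scored at least 1.2 in replicate 2, and 2 of them scored under 1.00 in replicate 1. The same limits were put on both lists although their scaling is unknown, so the counts in either direction are not weighed against each other. The 23 had scores from 1.23 to 1.85 (median 1.43) in replicate 1 and from 0.45 to 0.91 (median 0.63) in replicate 2. The median of the loci that did not score high in replicate 1 was 0.66 in replicate 2. That group has no upper limit in replicate 2, while the 23 were picked for scoring under 1.00 there. The medians are therefore not weighed against each other. The 23 lay in 14 of the 1 Mb bins, so they were spread along the stretch.

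The highest of the 23 was also the highest cluster of replicate 1 on the stretch, from 2174595 to 2176776, with a score of 1.85 against 0.45 in replicate 2, and 1.15 for the replicate set. The next were from 14673554 to 14675710 (1.84 and 0.45) and from 20969913 to 20972058 (1.84 and 0.70). Of the 23, 5 lay between 12522315 and 12818663, 4 of them in the dense window from 12500001 to 12600000. On the matching stretches of 3L, 3R and X, 22 of 28, 29 of 36 and 87 of 96 loci high in replicate 1 scored under 1.00 in replicate 2. With the scaling of each list unknown, a difference in score between lists is not read as a fold change. The limits of 1.2 and 1.00 were set after the scores were plotted, and nothing was tested.

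The windows with the widest differences in cover between the replicates adjoined, a pattern noticed after the values were seen. From 5800001 to 5900000 cover was 6.13% in replicate 1 and 24.2% in replicate 2, the widest difference of the 200 windows. From 5900001 to 6000000 it was 20.6% and 3.11%, the next widest, in the other direction. Over both windows together cover was 13.4% and 13.6%, from 12 and 14 clusters, with 4 loci called in both. Windows with large differences in opposite directions even out when joined. The near-equal cover is thus not read as a trait of this place, and nothing was tested.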
